A study of Homo sapiens with 16 samples.

Results

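Transcription of 9 genes of base excision repair and poly(ADP-ribosyl)ation (PARP1, PARP2, XRCC1, LIG3, POLB, APEX1, UNG, OGG1 and MUTYH) was followed in LNCaP cells, a human prostate cancer line in long use that responds to androgen. The members were chosen by their role in the pathway, and each of the 9 symbols matched exactly 1 of the 60605 Ensembl identifiers in the count tables. All 9 were transcribed in every library and passed the filter on low counts in every comparison. None passed an adjusted p of 0.05 after ionizing radiation (IR) or the antiandrogen drug enzalutamide in the fits of all libraries without a replicate block. With the block, APEX1 and POLB passed for IR in batch 1, beside 2332 of 25889 genes tested. POLB passed for IR over both batches, beside 1954 of 29195. Replicates of batch 1 were each sequenced as libraries t1 and t2, whose meaning is not given. Fitted alone without the block, t1 called APEX1 for IR, among 3995 genes called in all. In the same way t2 called APEX1, OGG1, POLB and MUTYH, among 9800. In the main fits, of all libraries without the block, the log2 fold changes of the 9 genes ran from -0.14 to 0.29 after IR. With enzalutamide they ran from -0.16 to 0.28. APEX1 differed more between the paired libraries of batch 1, by up to 1.88 on the log2 scale, than between treatments.

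Base excision repair removes single damaged bases. A DNA glycosylase cuts out the base (UNG takes uracil, OGG1 takes 8-oxoguanine, and MUTYH takes adenine mispaired with 8-oxoguanine), APEX1 nicks the backbone at the empty site, POLB fills the gap, and LIG3 seals it on the scaffold protein XRCC1. PARP1 and PARP2 bind DNA breaks and attach chains of ADP-ribose that recruit XRCC1. Ionizing radiation makes oxidized bases and single-strand breaks that this pathway handles, and inhibitors of PARP1 and PARP2 are used to treat prostate cancer.

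The assay was PRO-seq, a nuclear run-on that maps engaged RNA polymerases and so reads transcription rather than the amount of mRNA. All cells were LNCaP grown in serum-containing medium. In batch 2, cells received DMSO vehicle for 90 min, vehicle with 6 Gy of IR given 30 min into the treatment and collected 60 min later, 10 µM enzalutamide for 90 min, or 10 µM enzalutamide with 6 Gy of IR on the same schedule, with replicates 3 and 4 in each group. Batch 1, whose labels name no vehicle or drug, compared mock with 6 Gy of IR in replicates 1 and 2, each sequenced as libraries t1 and t2. Its labels do not give the time from IR to collection. What t1 and t2 stand for is not given in the sources used here, and their counts were summed to 1 replicate. The 6 groups thus had 2 replicates each. Nothing in the labels says that replicates were separate cultures, so p-values measure the spread between these samples, which may be technical. The study asked whether androgen signalling acts directly on DNA damage response genes.

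Libraries held between 3438642 and 19905824 counts, and a member had between 58 (XRCC1) and 3037 (PARP1) counts in a single library. Genes that mark LNCaP were transcribed in all 12 samples (FOLH1 956 to 1390 CPM, the gene's counts scaled to the size of the library, and HOXB13 127 to 185 CPM), whereas 10 markers of basal, stromal, blood and vessel cells summed to 17.7 to 29.4 CPM. As a check of the treatments, CDKN1A, the cell cycle inhibitor that p53 induces, rose after IR in batch 2 vehicle cells (log2 fold change 3.02, SE 0.174, edgeR adjusted p 5.5e-07). MDM2, the ubiquitin ligase that p53 induces, rose in the same comparison (151 and 156 CPM to 683 and 631 CPM; edgeR adjusted p 1.63e-07). TMPRSS2, a gene induced by androgen, fell with enzalutamide averaged over IR (log2 fold change -0.58, SE 0.0622, edgeR adjusted p 0.00123), while KLK3, another such gene, did not pass (-0.66, SE 0.212, edgeR adjusted p 0.69). In batch 1, t1 and t2 libraries of the same replicate stood apart: the median absolute log2 difference between them, over genes with at least 1 CPM in both, was 0.30 to 0.43. Results from batch 1 are therefore also given from the t1 or the t2 libraries alone where a call changed.

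Positions are those of the RefSeq annotation on GRCh38.p14, and the submitters' processing notes name hg38. PARP1 spans chr1:226360691-226408093 on the minus strand, and MUTYH spans chr1:45329242-45340440, also minus. PARP2 (chr14:20343635-20357904) and APEX1 (chr14:20455226-20457767) lie on the plus strand. XRCC1 covers chr19:43543311-43575527 (minus), LIG3 chr17:34980512-35010872 (plus), OGG1 chr3:9749952-9791070 (plus) and UNG chr12:109097597-109110992 (plus). Their spans differ widely, from 2.54 kb for APEX1 to 47.4 kb for PARP1.

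Since the question of the study is control by androgen signalling, the 250 bases before the RefSeq start were searched on both strands for AGAACA, the half-site letters of steroid receptor elements. The other motifs were GGGCGG (GC box), the box CCAAT itself, the ETS core CGGAAG, the TATA box TATAAA, and the cAMP response element TGACGTCA. Of the 8 members in the promoter table (all but POLB), 2 hold AGAACA, PARP1 and PARP2, against 12.4% of all 35116 promoters of that length. They are shown with APEX1, the most variable member, which holds no AGAACA. Capitals mark matches to these motifs on either strand. The sequences are those of chr1:226408094-226408343 (minus), chr14:20343385-20343634 (plus) and chr14:20454976-20455225 (plus).
PARP1: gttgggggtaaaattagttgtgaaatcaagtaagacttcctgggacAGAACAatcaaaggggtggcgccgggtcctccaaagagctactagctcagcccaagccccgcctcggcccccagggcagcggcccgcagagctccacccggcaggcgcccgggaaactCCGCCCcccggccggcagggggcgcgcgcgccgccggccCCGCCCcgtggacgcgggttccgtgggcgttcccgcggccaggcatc
PARP2: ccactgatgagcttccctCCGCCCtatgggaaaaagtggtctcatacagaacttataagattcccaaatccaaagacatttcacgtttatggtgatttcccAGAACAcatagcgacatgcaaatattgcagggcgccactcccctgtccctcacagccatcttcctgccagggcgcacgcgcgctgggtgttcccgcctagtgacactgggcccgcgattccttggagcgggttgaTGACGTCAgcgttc
APEX1: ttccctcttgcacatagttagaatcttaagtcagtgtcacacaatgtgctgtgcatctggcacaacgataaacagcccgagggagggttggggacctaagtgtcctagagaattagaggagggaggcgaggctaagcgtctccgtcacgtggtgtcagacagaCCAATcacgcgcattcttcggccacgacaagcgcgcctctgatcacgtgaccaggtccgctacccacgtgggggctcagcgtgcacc

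In these windows GGGCGG was found in 6 of 8 members (42.6% of all promoters), CCAAT in 4 of 8 (32%), CGGAAG in LIG3 alone (16.5% of all), TGACGTCA in PARP2 alone (1.65% of all) and TATAAA in 0 of 8 (10.7% of all). XRCC1 and PARP1 were the richest in CG dinucleotides, with 30 and 26 in the 250 bases, and MUTYH the poorest with 10, beside a median of 11 over all promoters. A match is only a run of letters, and binding was not measured here.

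Levels between genes were compared as CPM per kb of gene span. In vehicle cells of batch 2, APEX1 was highest (10.3 and 14 CPM per kb), followed by MUTYH (3.6 and 3.81), PARP1 (2.86 and 3.03) and UNG (2.43 and 2.45). LIG3 (2.04 and 2.16) and PARP2 (1.87 and 2.04) came next, then OGG1 (1.66 and 1.79) and POLB (1.44 and 1.7), and the scaffold gene XRCC1 was lowest (0.781 and 0.793 CPM per kb). The values of LIG3 and PARP2 met, and so did those of OGG1 and POLB, whereas every other pair of neighbours in this order did not overlap. APEX1 stood first, MUTYH second, POLB eighth and XRCC1 ninth in all 6 groups. This order depends on the division by span, and APEX1 and MUTYH have the shortest spans (2.54 and 11.2 kb). In CPM not divided by span, PARP1 had the highest mean in vehicle cells (140 CPM). There APEX1 (30.9 CPM) had a higher mean than only PARP2 (27.9 CPM) and XRCC1 (25.4 CPM). Whether counts were spread evenly along the spans was not tested.

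**Figure D1:**
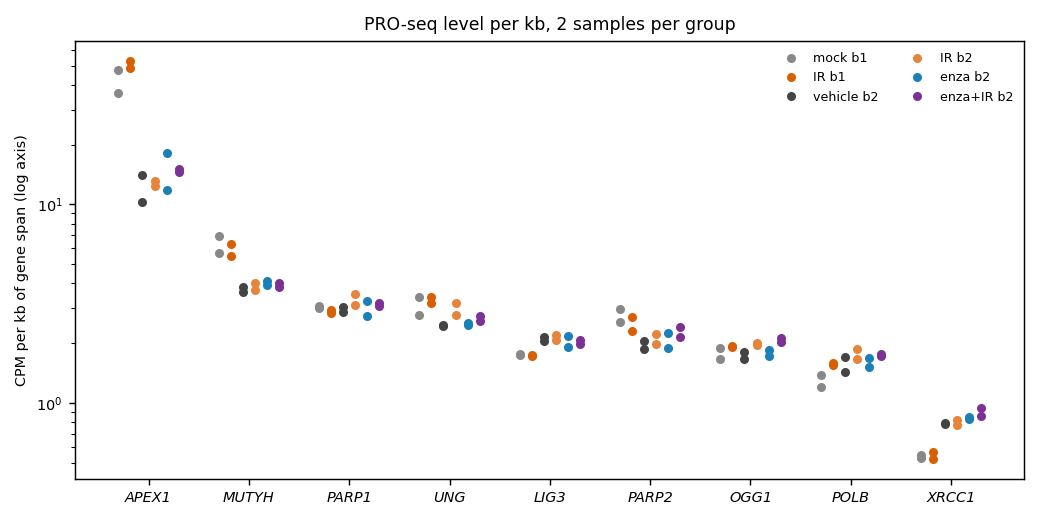
PRO-seq level of each of the 9 genes in CPM per kb of gene span (log axis), with 1 dot per sample and 2 samples in each of the 6 groups (b1, batch 1; b2, batch 2; enza, enzalutamide). APEX1 lies between 10.3 and 53 CPM per kb and XRCC1 between 0.522 and 0.938, and APEX1 and MUTYH are higher in batch 1 than in batch 2.

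The batches were scaled separately, and their levels are set side by side only as a description. APEX1 was at 107 CPM ± 19.9 (SD, n = 2) in mock cells of batch 1 and at 30.9 CPM ± 6.70 (SD, n = 2) in vehicle cells of batch 2. MUTYH was also higher in batch 1, at 70.7 CPM ± 9.87 against 41.5 CPM ± 1.71 (SD, n = 2 each). XRCC1 went the other way, with 17.3 CPM ± 0.51 in mock and 25.4 CPM ± 0.262 in vehicle (SD, n = 2 each). PARP1, at 144 CPM ± 2.49 and 140 CPM ± 5.62 (SD, n = 2 each), was nearly level between the batches. The share of mitochondrial counts moved with the batch as well (2.86% to 5.38% in batch 1, 0.57% to 0.934% in batch 2), and its part in these differences was not tested.

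**Figure D2:**
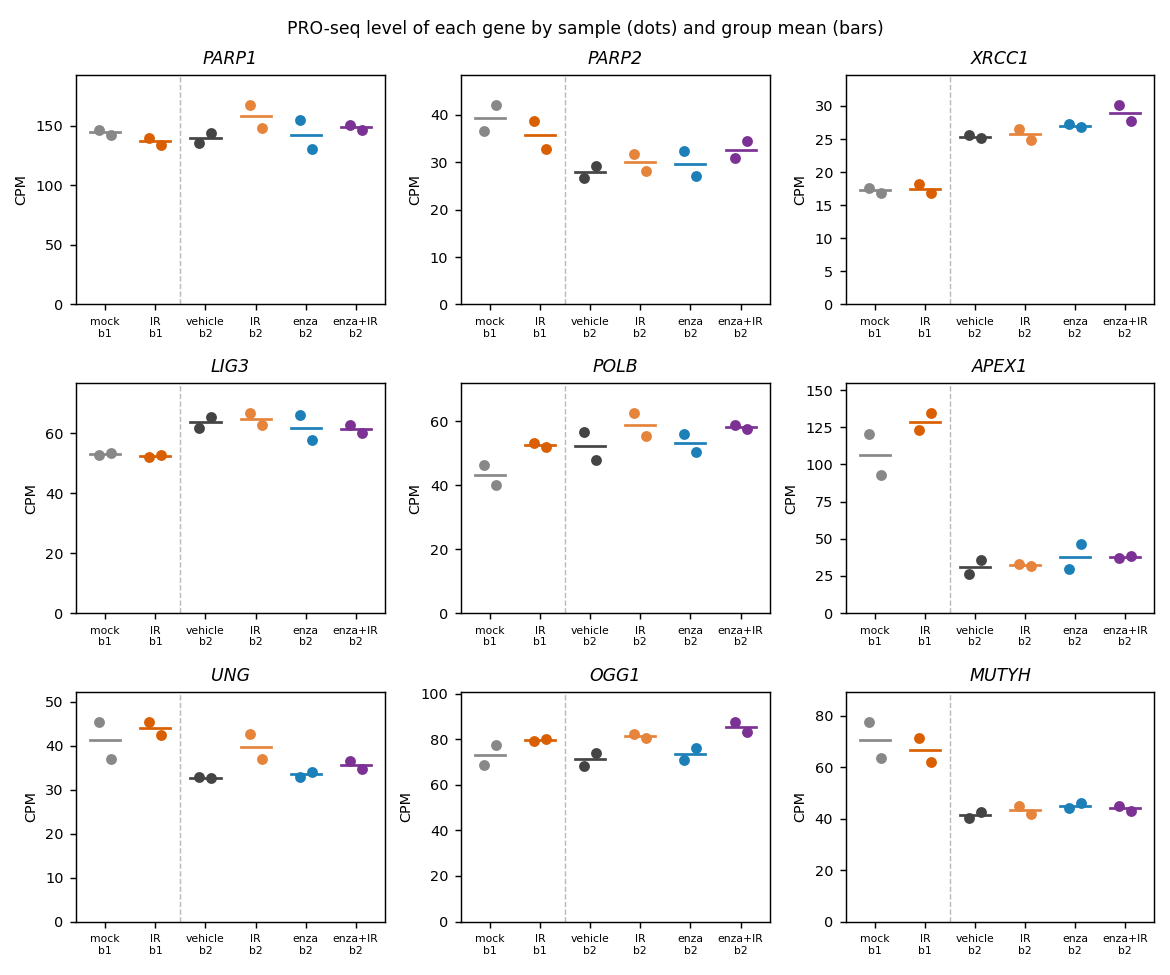
CPM of each gene in each sample (dots, 2 per group) with the group mean (bars), in the 6 groups (b1, batch 1; b2, batch 2; enza, enzalutamide; each axis starts at 0); the dashed line separates the batches, which were scaled separately. In each single comparison with radiation or enzalutamide most genes have overlapping samples, but only PARP2 and LIG3 overlap in all of them. For APEX1 the batches are farther apart than any treatment and its control.

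Radiation was compared with its control in 3 separate settings, the mock cells of batch 1, the vehicle cells of batch 2 and the enzalutamide-treated cells of batch 2. With edgeR, 0 of the 9 members passed an adjusted p of 0.05 in any of them, beside 2.82%, 1.1% and 0.918% of all genes tested, in that order. With the replicate number as a block, 2 members, APEX1 and POLB, passed in batch 1, beside 2332 of 25889 genes tested. DESeq2 called 0 in each. At an unadjusted p under 0.05 edgeR, without the block, gave 1 member in batch 1 (11.5% of all genes), 2 with vehicle (11% of all genes) and 1 with enzalutamide (9.49% of all genes). Their median log2 fold change was 0.017 in batch 1, with 5 of 9 above 0 (all genes: -0.0021, 49.6% above 0), 0.10 with vehicle, with 9 of 9 above 0 (7 of 9 when scaled by total counts, without vehicle replicate 3 or without IR replicate 3; all genes: -0.0057, 49.1%), and 0.089 with enzalutamide, with 6 of 9 above 0 (all genes: -0.014, 47.4%). Leaving out 1 sample moved the median in batch 1 from -0.015 (3 of 9 above 0, without mock replicate 2) to 0.068 (6 of 9, without IR replicate 2), and that with vehicle from 0.024 (without IR replicate 3) to 0.18 (without IR replicate 4). With edgeR on all libraries, every 95% interval of the 9 members lay within a 1.5-fold change in these 3 comparisons. It did so for 53.7%, 48.5% and 47.8% of all genes. In batch 1 this held for 8 of 9 members with DESeq2, 7 from t1 alone and 5 from t2 alone. Both irradiated samples lay above both controls for 3 of 9 members with vehicle (PARP1, OGG1 and UNG; 21.8% of all genes) and for 4 of 9 with enzalutamide (XRCC1, OGG1, POLB and UNG; 18.6%), and below both for 0 of 9 in each (22.8% and 19.5%). In batch 1 they lay above for 3 of 9 (OGG1, APEX1 and POLB; 20.3%) and below for 1 (PARP1; 19.7%).

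PARP1 had 146 and 142 CPM in mock and 140 and 134 CPM in irradiated cells of batch 1, and 136 and 144 CPM in vehicle against 168 and 148 CPM after IR in batch 2. Both irradiated samples thus lay below both controls in batch 1, as for 19.7% of all genes, and above both in batch 2, as for 21.8%. Its log2 fold change was -0.08 (SE 0.115) in batch 1 and 0.18 (SE 0.0999) with vehicle, and the difference between them, -0.28 (SE 0.147), did not pass (edgeR adjusted p 0.89). PARP2, whose enzyme shares the catalytic function of PARP1, overlapped between irradiated and control samples in all 3 settings. It had 36.5 and 42.2 CPM in mock, 38.7 and 32.8 CPM after IR in batch 1, 26.7 and 29.2 CPM in vehicle, and 31.7 and 28.2 CPM after IR with vehicle.

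XRCC1 and LIG3, the scaffold and its ligase, had the fold changes nearest 0 over both batches together. XRCC1 had 17.6 and 16.9 CPM in mock and 18.2 and 16.8 CPM after IR, then 25.5 and 25.2 CPM in vehicle and 26.5 and 24.9 CPM after IR with vehicle. The log2 fold changes were 0.017 (SE 0.138) and 0.021 (SE 0.107). LIG3 gave 52.9 and 53.5 CPM in mock, 52.1 and 52.9 CPM after IR in batch 1, 61.9 and 65.5 CPM in vehicle, and 66.8 and 62.8 CPM after IR with vehicle. For LIG3 irradiated and control samples overlapped in each setting, and its 95% interval over both batches together ran from -0.15 to 0.14 on the log2 scale.

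POLB, the gap-filling polymerase, had the smallest p of the 9 for IR in batch 1 and in the fit of both batches, but not with vehicle (UNG) or with enzalutamide (OGG1). It went from 46.1 and 40 CPM in mock to 53.2 and 52 CPM after IR in batch 1, from 56.7 and 47.9 to 62.5 and 55.2 CPM with vehicle, and from 56.1 and 50.3 to 58.7 and 57.5 CPM with enzalutamide. Irradiated samples lay above the controls in batch 1 and with enzalutamide and overlapped them with vehicle. In the fit of both batches without enzalutamide its log2 fold change was 0.22 (SE 0.0795, edgeR adjusted p 0.159). With the replicate number as a block the change was 0.22 in this fit (95% interval 0.088 to 0.35, edgeR adjusted p 0.044). It was 0.29 in batch 1 alone (edgeR adjusted p 0.0187), so the call depended on the pairing of samples. With the block 1954 of 29195 genes tested passed over both batches and 2332 of 25889 in batch 1.

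Of the 3 glycosylase genes, OGG1 alone lay above its controls in each setting. OGG1 went from 68.6 and 77.5 to 79 and 79.9 CPM in batch 1, from 68.4 and 73.8 to 82.3 and 80.5 CPM with vehicle, and from 70.8 and 76.1 to 87.7 and 83.3 CPM with enzalutamide. Both irradiated samples were above both controls each time; groups did not overlap in this direction for 20.3%, 21.8% and 18.6% of all genes. Its log2 fold changes were 0.12, 0.19 and 0.22 (SE 0.106, 0.0866 and 0.0872; edgeR adjusted p 0.769, 0.433 and 0.433). The opposite-strand neighbour CAMK1, which overlaps 30.6% of the OGG1 span, had log2 fold changes of 0.0038, 0.32 and 0.33 in the same 3 settings, and with strand use not stated its part in the OGG1 counts was not tested.

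UNG had its largest value with vehicle, from 32.9 and 32.6 CPM to 42.6 and 36.9 CPM after IR (log2 fold change 0.28, 95% interval 0.059 to 0.51, edgeR adjusted p 0.334). In batch 1 its samples overlapped, with 45.5 and 37.1 CPM in mock and 45.5 and 42.5 CPM after IR. MUTYH had 77.6 and 63.7 CPM in mock and 71.1 and 61.8 CPM after IR, then 40.3 and 42.7 CPM in vehicle and 44.9 and 41.7 CPM after IR with vehicle. For MUTYH all 3 settings overlapped, and the log2 fold changes ran from -0.088 to 0.061.

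**Figure D3:**
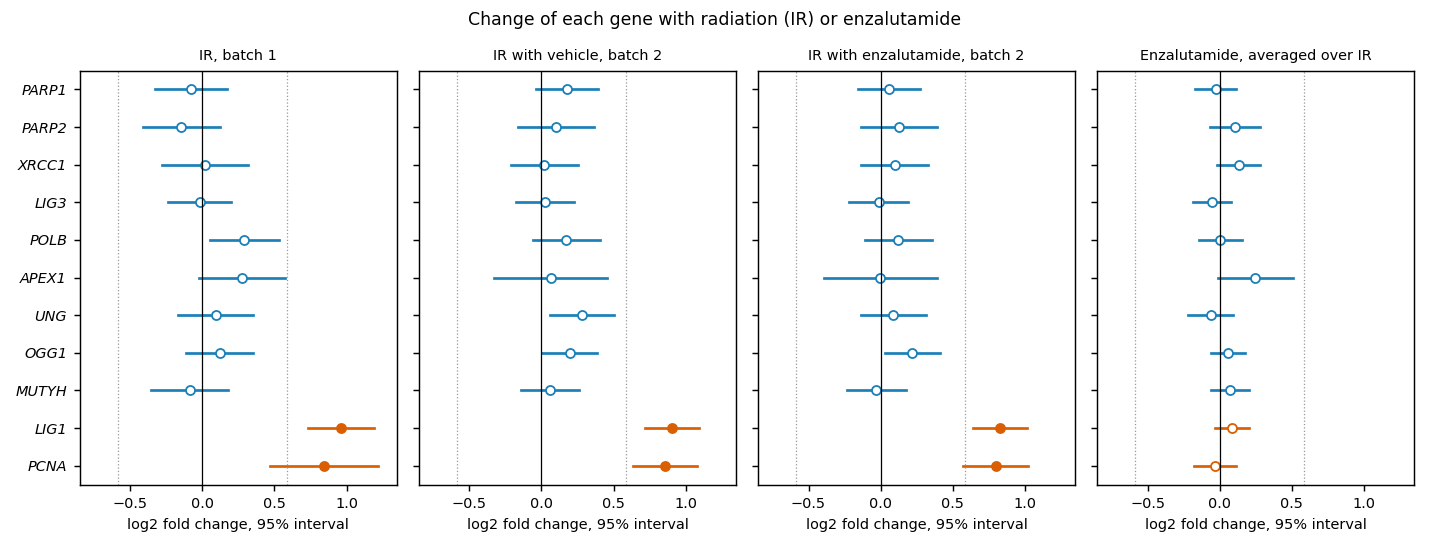
Log2 fold change (dot) and 95% interval (line) of the 9 members (blue) and of LIG1 and PCNA (orange) after radiation in 3 settings and with enzalutamide averaged over radiation; filled dots passed an adjusted p of 0.05 by edgeR, and dotted lines mark a 1.5-fold change. The members lie around 0 with intervals inside the dotted lines, and LIG1 and PCNA lie between 0.80 and 0.96 after radiation.

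APEX1, the main endonuclease for abasic sites, depended on which library of batch 1 was read. Summed over t1 and t2 it had 121 and 92.7 CPM in mock and 123 and 135 CPM after IR, a log2 fold change of 0.27 (SE 0.137, edgeR adjusted p 0.502). In t1 it stood at 102 and 72.9 CPM in mock against 146 and 225 CPM after IR, and in t2 at 132 and 126 CPM in mock against 84.6 and 61.1 CPM after IR. The t1 libraries alone thus gave a rise (log2 fold change 1.11, edgeR adjusted p 0.00154) and the t2 libraries alone a fall (-0.84, adjusted p 0.000351). Of all genes tested, 3995 passed in the t1 fit and 9800 in the t2 fit. On the summed counts, APEX1 also passed with the replicate block (0.28, edgeR adjusted p 0.0293), beside 2332 of 25889 genes tested. Its log2 fold change was 0.47 without mock replicate 1 and 0.093 without mock replicate 2. In batch 2, which has no t libraries, APEX1 had 26.1 and 35.6 CPM in vehicle and 33.3 and 31.4 CPM after IR, which overlapped, and the 95% interval of the change ran from -0.33 to 0.46.

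Other members showed the same crossing of t1 and t2 between mock and irradiated cells. MUTYH was higher in t2 in both mock replicates (66 and 57.6 CPM in t1, 84.5 and 75.6 CPM in t2) and lower in t2 in both irradiated ones (75.3 and 78.9 CPM in t1, 64.1 and 48.4 CPM in t2). OGG1 went the opposite way, with 75.6 and 88.5 CPM in t1 and 62.7 and 65.5 CPM in t2 of mock, and 67.2 and 74.6 CPM in t1 and 98.4 and 85.2 CPM in t2 after IR. POLB, XRCC1 and LIG3 followed the direction of OGG1, and PARP2 and UNG had no common order. From the t2 libraries alone OGG1 (log2 fold change 0.52, edgeR adjusted p 0.00239) and POLB (0.51, adjusted p 0.00263) passed as higher after IR. MUTYH passed as lower (-0.53, adjusted p 0.00534). Of the members, t1 alone called only APEX1. Among all genes tested, 9800 passed in the t2 fit and 3995 in the t1 fit, against 731 of 25889 on the summed counts. The t1 libraries alone gave the opposite sign for OGG1 (-0.19, edgeR adjusted p 0.39) and MUTYH (0.35, adjusted p 0.0995) and the same sign for POLB (0.10, adjusted p 0.682). PARP1, by contrast, differed by at most 0.080 on the log2 scale between t1 and t2 of a replicate. The mitochondrial share crossed likewise: it was 4.25% and 5.06% in t1 and 3.24% and 3.94% in t2 of mock, and 2.87% and 2.86% in t1 and 5.38% and 4.47% in t2 after IR; its part in these values was not tested. Whether t1 and t2 name the same thing in mock and in irradiated replicates is not given in the sources used here. If they do not, a fit of t1 or of t2 alone compares unlike libraries, and its fold changes are not responses to IR.

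**Figure D4:**
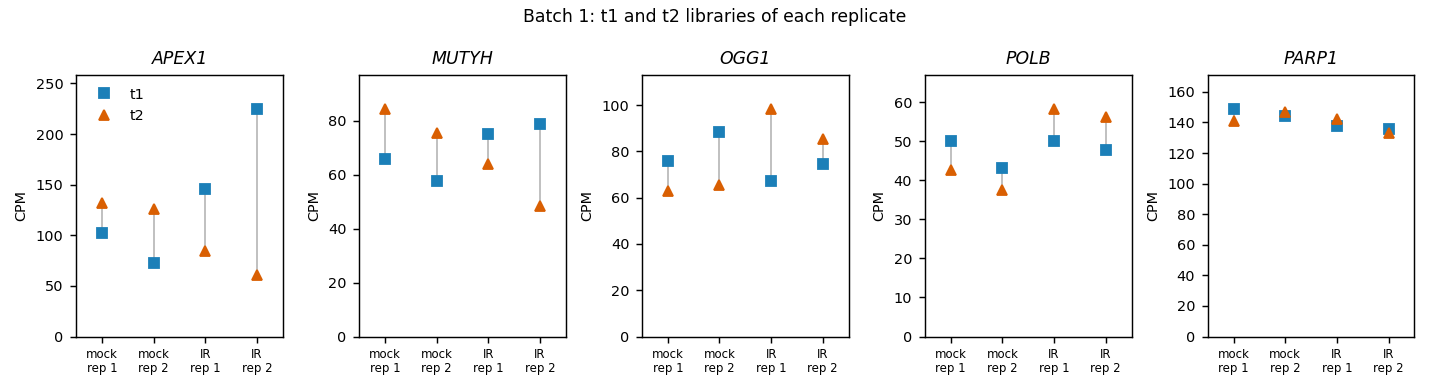
CPM of 5 members in the t1 (squares) and t2 (triangles) libraries of each batch 1 replicate, scaled over the 8 libraries; each axis starts at 0. For APEX1 and MUTYH t2 lies above t1 in mock and below it after radiation, for OGG1 and POLB the order is the reverse, and for PARP1 the libraries lie together.

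Enzalutamide was compared with vehicle to ask whether blocking androgen signalling alters these genes. Averaged over IR, edgeR called 0 of the 9 members, beside 0.0628% of all genes, and 0 had an unadjusted p under 0.05 (6.21% of all genes); DESeq2 called 0 as well. The median log2 fold change of the members was 0.057, with 6 of 9 above 0 (all genes: 0.0007, 50.2% above 0). All 9 of the 95% intervals lay within a 1.5-fold change (68.7% of all genes), with a median half-width of 0.15 on the log2 scale. Without IR, and likewise with IR, 0 of 9 passed and 0 had an unadjusted p under 0.05 (0.0105% of all genes passed in each; 2.56% and 3% had such a p). There 8 of 9 intervals lay within a 1.5-fold change (54.1% and 52.3% of all genes), the exception being APEX1 each time.

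PARP1 and PARP2, the targets of PARP inhibitors and the members with an AGAACA match, had overlapping samples under enzalutamide. PARP1 stood at 136 and 144 CPM in vehicle and 155 and 131 CPM with the drug, then at 168 and 148 CPM after IR and 151 and 146 CPM after IR with the drug. Its log2 fold change averaged over IR was -0.028, with a 95% interval from -0.17 to 0.12. PARP2 had 26.7 and 29.2 CPM in vehicle, 32.3 and 27.1 CPM with the drug, 31.7 and 28.2 CPM after IR, and 30.8 and 34.4 CPM after IR with the drug (log2 fold change 0.11, 95% interval -0.064 to 0.28).

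XRCC1 was the one member above its control in every enzalutamide sample of both settings, from 25.5 and 25.2 to 27.3 and 26.8 CPM without IR and from 26.5 and 24.9 to 30.2 and 27.7 CPM with IR. Its log2 fold change averaged over IR was 0.13 (SE 0.0701, edgeR adjusted p 0.835). Groups did not overlap in this direction for 14% and 16.4% of all genes. APEX1 had the largest average, 0.25 (SE 0.121, edgeR adjusted p 0.828), on uneven replicates of 29.9 and 46.2 CPM with the drug alone. Without enzalutamide replicate 4, APEX1 in cells that had no IR went to -0.048 on the log2 scale, and the direction in that arm was lost. Leaving out each sample in turn, the average kept its sign (0.11 to 0.36), as did the value with IR (0.17 to 0.26).

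UNG differed in direction between the arms, with 32.9 and 32.6 CPM in vehicle and 33 and 34 CPM with the drug, but 42.6 and 36.9 CPM after IR against 36.6 and 34.7 CPM after IR with the drug. Samples overlapped in neither arm. Without IR they were higher with the drug, as for 14% of all genes, and after IR lower with it, as for 15.5%. Its interaction of IR and enzalutamide was -0.19 (SE 0.147), the largest of the 9, and did not pass (edgeR adjusted p 1). LIG3, OGG1, POLB and MUTYH had averages over IR between -0.056 (LIG3) and 0.069 (MUTYH). For the interaction 0 of 9 members passed with edgeR or DESeq2 (0% of all genes with edgeR), and 0 had an unadjusted p under 0.05 (1.2% of all genes). Of the 9 intervals 8 lay within a 1.5-fold change (40.8% of all genes), and that of APEX1 ran from -0.62 to 0.49.

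IR over both batches, with batch as a term and without enzalutamide samples, gave 0 of 9 members past the threshold with edgeR (4.05% of all genes) and 0 with DESeq2. At an unadjusted p under 0.05 there were 3 (16.1% of all genes), POLB, UNG (0.18, SE 0.0843) and OGG1 (0.15, SE 0.0702), all above 0. This count was 1 without IR replicate 1 of batch 1, and also without vehicle replicate 3, vehicle replicate 4 or IR replicate 3 of batch 2. All 9 intervals lay within a 1.5-fold change (61% of all genes). The response to IR did not pass as different between the batches for any member with edgeR on the summed counts or with DESeq2 (edgeR adjusted p 0.89 to 0.999; 0.106% of all genes passed), and 0 had an unadjusted p under 0.05 (5.66% of all genes). The intervals of this difference were wide: 6 of 9 lay within a 1.5-fold change (36.4% of all genes), and those of PARP1, PARP2 and APEX1 reached beyond it. From the t2 libraries alone the difference passed for APEX1 (-0.90, edgeR adjusted p 0.00587) and MUTYH (-0.59, adjusted p 0.0259). In that fit 5646 genes passed among all those tested, against 31 of 29195 on the summed counts. The labels give no time after IR for batch 1, so a difference in time between the batches cannot be told apart from one of batch.

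Among 17 other genes of base excision repair, 2 passed as higher after IR in each of the 3 settings, LIG1 and PCNA, and 0 as lower. Of all genes, 2.82% passed in batch 1, 1.1% with vehicle and 0.918% with enzalutamide, in either direction. LIG1, the ligase that seals long repair patches and replication fragments, went from 34.5 and 32.7 to 67.2 and 63.7 CPM in batch 1, and from 42.2 and 44.7 to 83 and 79.6 CPM with vehicle. These are log2 fold changes of 0.96 (SE 0.105, edgeR adjusted p 0.000146) and 0.90 (SE 0.0858, adjusted p 6.56e-05). PCNA, the sliding clamp used in the long-patch branch, rose by 0.84 and 0.86 on the same scale (edgeR adjusted p 0.0173 and 0.000515). Both irradiated samples lay above both controls for each gene and setting, as for 20.3%, 21.8% and 18.6% of all genes in the same order of settings. LIG3 and POLB, which act at the same ligation and gap-filling steps in the short-patch branch, had values of -0.018 and 0.29 in batch 1 and of 0.025 and 0.17 with vehicle; LIG1 and LIG3 were not tested against each other. Under enzalutamide 0 of the 17 passed without or with IR (0.0105% of all genes in each). Of the 17, 0 had an unadjusted p under 0.05 there (2.56% and 3% of all genes).

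Of 20 other genes of the PARP family and of ADP-ribose handling, among them PARP3, TNKS, TIPARP, PARG and HPF1, 0 passed with edgeR in any of the 9 comparisons. At an unadjusted p under 0.05 there were 2 after IR in batch 1 (11.5% of all genes), 0 with vehicle (11%), 1 with enzalutamide (9.49%), 2 for IR over both batches (16.1%) and 1 for enzalutamide averaged over IR (6.21%). The median log2 fold change of the 20 was -0.031 in batch 1, 0.05 with vehicle and 0.0055 with enzalutamide after IR, and -0.032 for enzalutamide averaged over IR.

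Neighbouring genes can share counts with a member, since the use of strand is not given in the sources used here. OGG1 is overlapped by CAMK1 and by TADA3 (27% of its span), LIG3 by RFFL (16.1%), and MUTYH by the start of TOE1, which lies 270 bases from its own start on the other strand. APEX1 has the opposite-strand start of OSGEP 414 bases away, and PARP2 has RPPH1, the RNA of RNase P, 224 bases from its start. No neighbour with a tested value passed with edgeR in any of the 9 comparisons. OSGEP, like APEX1, was higher in batch 1 (38.5 CPM in mock, 18.3 CPM in vehicle), as were RPPH1 (67.5 and 15.8 CPM) and TOE1 (48.1 and 22.7 CPM). PARP1 and UNG had no overlapping gene or near start in the annotation.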

How the data were processed

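PRO-seq was measured in 16 libraries of LNCaP cells, counted here as 12 samples. The authors deposited 1 table of raw counts per batch, 60605 Ensembl genes each; per the submitters' processing notes, cutadapt 1.8.1, Bowtie2 2.4.4, SAMtools 1.9 and hg38 were used. The counting tool, annotation release, use of strand and removal of duplicates are not given in the sources used here. Symbols were matched for 60463 identifiers (99.8%).

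Counts of t1 and t2 were summed per replicate. Differential transcription was tested over all genes with edgeR 4.0.16 (filterByExpr, TMM factors, glmQLFit and glmQLFTest) in R 4.3.3, two-sided, with Benjamini-Hochberg adjustment and a threshold of 0.05. Batch 2 used 1 model with IR, enzalutamide and their interaction; both batches together used batch as a term. Standard errors came from the fold change and F statistic, and 95% intervals used the model's t distribution. CPM values are TMM-scaled per batch. Total counts per library (3438642 to 19905824) limit the precision, and no sample was left out of the reported fits.

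The members, gene lists, naming rule and alternatives were chosen with earlier results of these data known. Named genes were the 9 members, CDKN1A, MDM2, TMPRSS2 and KLK3 as checks, genes of 2 further lists (17 and 20 genes) where they passed, neighbours, and the 3 genes most like each member; some genes under this rule are not reported here. Any further gene is an example of a list or is marked as picked after its values were seen. Groups of a batch carry the same replicate numbers in the labels. Samples with the same number varied together, with a correlation over genes of the replicate differences of 0.162 to 0.333 for 6 pairs of groups in batch 2 and 0.245 in batch 1. Alternatives were the replicate block, RLE factors, total counts, other filters, DESeq2 1.42.0, single t libraries, fits of only 2 groups and leaving out each sample. The fit was also run on simulated counts, and the outcome is not reported here.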

Additional observations from a re-analysis of the deposited data

How the results depend on the processing

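Of 81 member results (9 genes in 9 comparisons), 38 kept their direction in every alternative, and 11 of 1188 alternative values, in 7 results, passed the threshold. None of the 792 batch 2 values did, the 396 for enzalutamide included. With the replicate block, members past the threshold went from 0 to 2 for IR in batch 1 (APEX1 and POLB) and to 1 for IR in both batches (POLB); the pairing changed no other member's call. All genes past the threshold with the block, against without it, were 2332 and 731 for IR in batch 1, 1315 and 314 for IR with vehicle, 951 and 263 for IR with enzalutamide, 55 and 3 for enzalutamide without IR and likewise with IR, 272 and 18 averaged over IR, 1 and 0 for the interaction, 1954 and 1182 for IR in both batches, and 96 and 31 for the difference between batches. With no filter these counts were 1157, 624, 556, 74, 64, 230, 32 and 119, in that order without IR in both batches. DESeq2 gave 13, 7 and 58 for the 3 enzalutamide comparisons, and fitting only the groups compared gave 7 for enzalutamide with IR. The t1 libraries alone gave 3995 genes for IR in batch 1 and 452 for the difference, with 1 member past the threshold for the first and 2 members, against 6, within 1.5-fold for the second. The t2 libraries alone gave 9800, 657 (both batches) and 5646 (difference) genes, 4 and 2 members past the threshold for IR in batch 1 and the difference, and 5 members, against 9, within 1.5-fold in batch 1. APEX1 reversed in t2 alone, to -0.84 for IR in batch 1 and -0.90 for the difference. The cause was not tested.

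Leaving out each sample in turn, all genes past the threshold ranged from 587 to 1509 for IR in batch 1 (highest without mock replicate 2), 161 to 511 with vehicle, 139 to 434 with enzalutamide, 2 to 10 for enzalutamide without IR, 1 to 6 with IR, 7 to 36 averaged, and 0 to 4 for the interaction. Members past the threshold ranged from 0 to 1 in batch 1, the 1 being APEX1 without mock replicate 1. Where 1 sample was left in a group, it was assumed to vary like the others. Of 144 levels under another scaling or from 1 t library, 21 moved by over 1 SD. The median half-width of a member's 95% interval on the log2 scale was 0.22 to 0.26 in the comparisons of 2 groups, 0.15 for enzalutamide averaged over IR, 0.17 for IR in both batches, 0.32 for the interaction and 0.34 for the difference between batches.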

Other observations

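Across the 12 samples, log2(CPM + 1) centred within batch gave the closest likeness among the members for PARP1 and LIG3 (Pearson r 0.749), followed by POLB and UNG (0.713) and PARP1 and PARP2 (0.617). The lowest was LIG3 and APEX1 (-0.502). Of the 36 pairs 27 were positive, with a median of 0.275. The samples share treatments and sequencing runs within a batch, so these values are a description only.

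Over 12231 genes with at least 10 CPM in both batches, the genes most like each member in the same samples were CARS2, GDI2 and TMEM109 for PARP1 (r 0.930, 0.912 and 0.904) and TRMT10B, DYNLRB1 and CBR3 for PARP2 (0.916, 0.910 and 0.907). Among the genes most like OGG1 were SGTA and KMT2B (0.968 and 0.963). For POLB they were MGME1, EED and POLR2M (0.954, 0.952 and 0.952), and for UNG FKBP4, METTL3 and UMPS (0.948, 0.941 and 0.926). APEX1 was most like C2orf68, CSRNP2 and RNU4ATAC (0.936, 0.929 and 0.924), and MUTYH most like NFE2L1-DT, SDE2 and TRMT10C (0.936, 0.936 and 0.929). XRCC1 had FAM32A, SARS2 and MYL6 (0.918, 0.915 and 0.910), and LIG3 had PTGR2, ELOVL6 and HDDC2 (0.878, 0.870 and 0.861). These are the highest of many values over few samples.

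For IR over both batches, 4 of the 17 other base excision repair genes and 2 of the 20 other PARP and ADP-ribose genes had an unadjusted p under 0.05, beside 16.1% of all genes. Those that did not pass the adjusted threshold, named after their values were seen, were the following. NEIL3, a glycosylase for oxidized bases, had a log2 fold change of -0.26 (SE 0.0839, edgeR adjusted p 0.095). MACROD1, an enzyme that removes ADP-ribose, had 0.23 (SE 0.0708, edgeR adjusted p 0.0883). TDP1, which clears blocked 3' ends, had -0.16 (SE 0.0698, edgeR adjusted p 0.261), and OARD1, another ADP-ribose hydrolase, had -0.17 (SE 0.0753, edgeR adjusted p 0.281).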
